A study of Mus musculus with 5 samples.

Results

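The genes described here are the protein-coding genes whose transcription start site (TSS) lay in an H3K27me3 enriched region of H3.3 K27R cells, split by whether the same TSS lay inside an H3K27me3 peak of EZHIP cells. Of 21418 protein-coding genes on chromosomes 1 to 19 of the mm9 GENCODE vM1 annotation, 6041 were such K27R genes (28.2%, 95% interval 27.6 to 28.8%). A gene is called kept where its TSS lay in an EZHIP peak and lost where it did not. Lost means only that the deposited EZHIP list held no peak over the TSS, and not that the mark was absent. A K27R region stands for each entry of the K27R list.

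Chromatin immunoprecipitation followed by sequencing (ChIP-Seq) for H3K27me3 was carried out in mouse embryonic fibroblasts (MEFs) derived from an embryo in which Eed, a gene for a PRC2 subunit, was floxed. Cells of both groups carried the floxed Eed allele with no Cre treatment described for them, and were transduced with lentivirus for stable expression of H3.3 K27R, the reference here, or of human EZHIP. Each group had 1 library of the 5 H3K27me3 libraries in the series, so that the values describe these libraries and no difference could be set against replicate spread. The lists gave positions without read counts, so that the depth of both libraries was unknown.

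Polycomb Repressive Complex 2 (PRC2) trimethylates lysine 27 of histone H3, and the mark is found over silent genes, among them the regulators of other cell lineages. In mammalian genomes PRC2 is recruited to CpG islands, stretches rich in the CG dinucleotide, and the mark spreads from there into broad domains. EZHIP is a protein of posterior fossa ependymoma that binds PRC2 and inhibits it. H3.3 K27R carries arginine in place of the lysine and served as the transgene control.

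The start sites of 6 genes show the range of sequences involved. Each line gives 300 bp of mm9, from 250 bp before to 50 bp after the TSS, 5′ to 3′ on the strand of the gene, with every CG in capitals. Pax2 (chr19:44830289-44830588, plus strand) was the kept gene under the widest EZHIP peak, and Sun5 (chr2:153696771-153697070, minus strand) was the lost gene in the widest K27R region without an EZHIP peak. Olfr311 (chr11:58654368-58654667, plus strand; kept) and Olfr312 (chr11:58644408-58644707, plus strand; lost) were the closest kept and lost neighbours in the region with the most genes among those with at least 2 of each. Wnt3a (chr11:59104205-59104504, minus strand; kept) and Wnt9a (chr11:59120180-59120479, plus strand; lost) shared a K27R region and were chosen after their values were seen.
Pax2: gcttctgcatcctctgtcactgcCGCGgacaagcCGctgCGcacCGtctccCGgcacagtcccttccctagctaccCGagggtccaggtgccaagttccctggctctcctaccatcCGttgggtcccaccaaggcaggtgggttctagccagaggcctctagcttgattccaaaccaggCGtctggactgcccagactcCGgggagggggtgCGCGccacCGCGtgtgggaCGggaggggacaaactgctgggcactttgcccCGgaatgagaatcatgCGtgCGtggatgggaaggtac
Sun5: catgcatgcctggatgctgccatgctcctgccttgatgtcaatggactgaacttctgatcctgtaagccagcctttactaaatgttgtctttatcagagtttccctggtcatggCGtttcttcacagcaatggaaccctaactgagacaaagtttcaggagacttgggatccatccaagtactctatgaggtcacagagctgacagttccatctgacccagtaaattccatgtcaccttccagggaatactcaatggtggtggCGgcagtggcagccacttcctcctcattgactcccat
Olfr311: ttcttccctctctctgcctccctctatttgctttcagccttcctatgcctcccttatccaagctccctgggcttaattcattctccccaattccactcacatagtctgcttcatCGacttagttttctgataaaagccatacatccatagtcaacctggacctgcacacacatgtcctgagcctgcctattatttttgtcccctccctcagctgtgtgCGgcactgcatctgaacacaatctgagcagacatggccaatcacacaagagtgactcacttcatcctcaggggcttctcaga
Olfr312: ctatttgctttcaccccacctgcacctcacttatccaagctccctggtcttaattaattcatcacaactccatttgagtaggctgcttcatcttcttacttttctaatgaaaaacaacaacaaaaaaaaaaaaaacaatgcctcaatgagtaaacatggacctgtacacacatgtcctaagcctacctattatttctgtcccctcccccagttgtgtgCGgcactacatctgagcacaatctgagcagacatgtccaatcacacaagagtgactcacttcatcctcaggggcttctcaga
Wnt3a: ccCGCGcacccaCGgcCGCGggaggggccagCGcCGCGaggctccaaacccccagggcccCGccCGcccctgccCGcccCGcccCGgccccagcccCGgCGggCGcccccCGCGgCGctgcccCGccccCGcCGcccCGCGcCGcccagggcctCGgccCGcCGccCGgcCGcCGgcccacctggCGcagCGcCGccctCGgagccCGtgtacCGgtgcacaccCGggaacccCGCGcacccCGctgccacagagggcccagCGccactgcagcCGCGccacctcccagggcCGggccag
Wnt9a: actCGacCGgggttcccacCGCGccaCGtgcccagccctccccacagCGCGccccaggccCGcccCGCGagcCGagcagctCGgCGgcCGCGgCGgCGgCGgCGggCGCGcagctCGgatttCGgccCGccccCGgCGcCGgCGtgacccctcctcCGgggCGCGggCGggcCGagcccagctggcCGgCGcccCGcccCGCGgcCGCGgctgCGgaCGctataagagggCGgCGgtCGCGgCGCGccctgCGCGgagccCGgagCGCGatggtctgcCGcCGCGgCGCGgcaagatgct

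The Pax2 window held 18 CG and the Sun5 window 2 CG. The Olfr311 and Olfr312 windows held 2 and 1 CG, so that this neighbouring pair hardly differed in CG count. In both windows the annotated TSS was the first base of an ATG. It may thus mark the start of the coding sequence, with the start of transcription farther upstream. Wnt3a and Wnt9a held 45 and 58 CG, and of these the lost gene had more. The motif searched was CG, which reads the same on both strands, and 95.1% of all promoter windows of this length held at least 1.

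Of the 6041 K27R genes, 1701 were kept, which is 28.2% (95% interval 27 to 29.3%), and 4340 were lost (71.8%). This share is the background for every family below. EZHIP peaks covered 7.25% of the length of the 12093 K27R regions, so that start sites lay in EZHIP peaks more often than K27R sequence at large. The kept share per chromosome ran from 21.6% on chromosome 16 to 38.5% on chromosome 12. The reverse case was rare, since only 4 protein-coding genes on these chromosomes (Obsl1, Inha, Zfp167 and Samd15) had the TSS in an EZHIP peak and outside the K27R regions. Obsl1 and Inha each lay under a peak of 3.2 kb, Samd15 under 2.8 kb and Zfp167 under 1.2 kb.

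The cells were checked against fibroblast genes. Of 10 fibroblast genes, 9 lay outside the K27R regions, among them the collagens Col1a1, Col1a2 and Col3a1, the intermediate filament gene Vim and the limb mesenchyme factors Twist1 and Prrx1. The exception was Pdgfra, a platelet-derived growth factor receptor of mesenchymal cells, which lay in a K27R region of 35.2 kb and was kept under an EZHIP peak of 7.0 kb. The neural regulators Pax6, Neurog2, Olig2 and Sox2 and the endoderm regulators Foxa1, Foxa2 and Sox17 lay in K27R regions and were kept. The EZHIP peaks over these neural genes spanned 24.4 kb (Neurog2) to 50 kb (Olig2). Of the endothelial genes Cdh5 and Tie1 were in K27R regions and both were lost, and Cdh1, the epithelial cadherin, was lost while Epcam was kept. Tal1 (blood) and Myod1 (muscle) were kept. Of the 22 markers of other cell types, 15 lay in K27R regions and 12 of these were kept. K27R regions held 2 of 4 endothelial, 2 of 4 epithelial, 1 of 2 blood and 1 of 3 muscle markers. A position outside the K27R regions was thus not particular to fibroblast genes.

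Developmental transcription factors were kept more often than any other class of genes examined here. In the families grouped under this name 184 of 234 K27R genes were kept (78.6%, interval 72.8 to 83.7%), against the background of 28.2%. All members in K27R regions were kept among the brain patterning homeobox genes (10 of 10, among them En1, En2, Otx2, Emx1 and the Gbx and Gsx genes), the Sall, Osr and Wt1 zinc fingers (6 of 6), the Cdx, Evx, Meox and Pdx1 group (5 of 5), the Zic genes (4 of 4) and the homeobox genes Six2, Six3 and Six6 (3 of 3). The Nkx genes, which pattern the ventral neural tube, the heart and the foregut, kept 12 of 13 members, the paired-like homeobox genes 13 of 15, and the NK-like and Bar genes 17 of 20. The lineage-directing bHLH factors kept 29 of 38. The lowest shares in this class were those of the POU genes (6 of 10), the Iroquois genes (3 of 5) and the forkhead genes (13 of 21). Some genes, among them Gsx2 and Alx1, have more than 1 entry in the annotation and were counted at each.

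**Figure D1:**
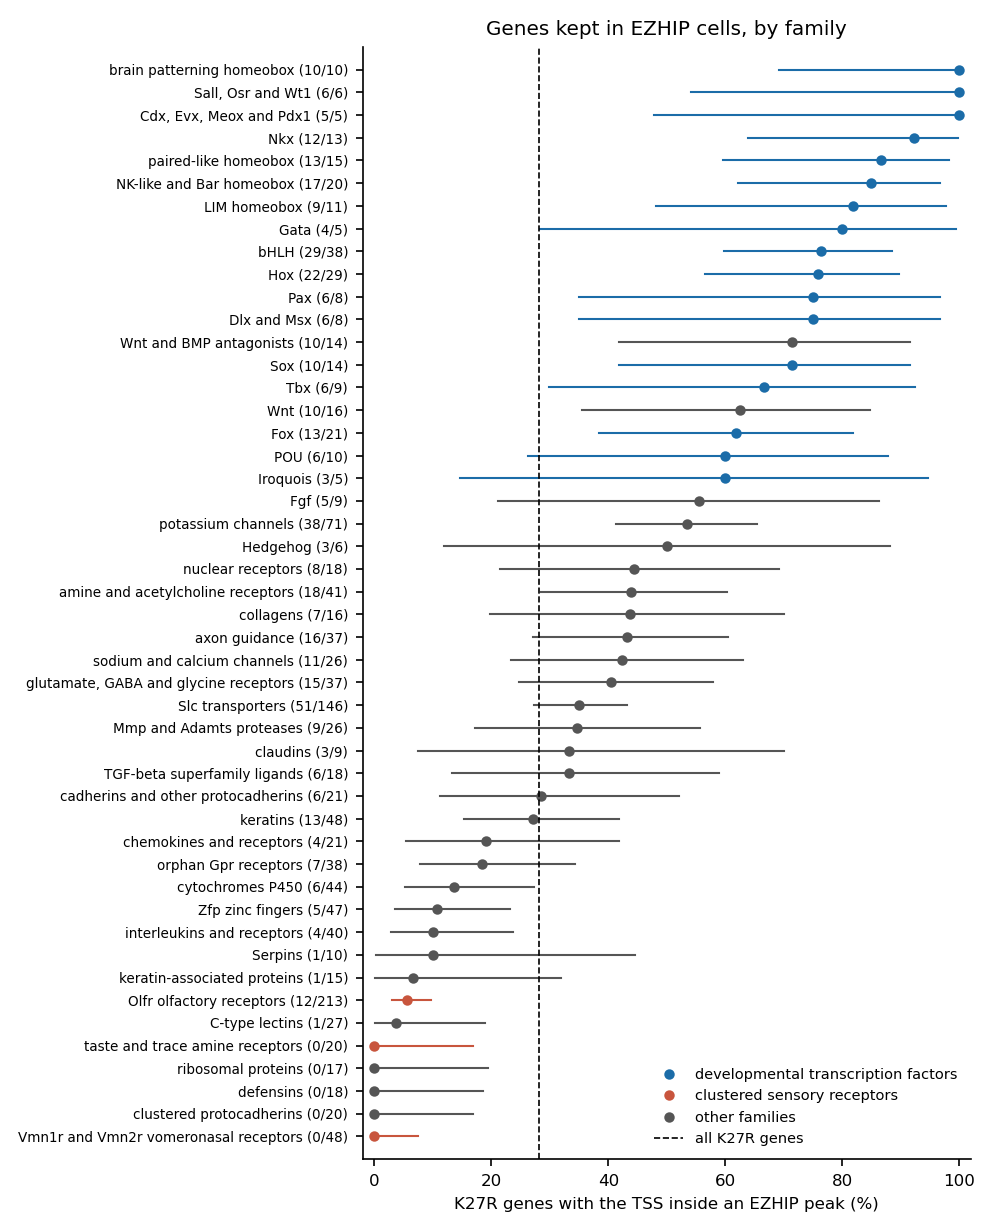
Share of K27R genes with the TSS inside an EZHIP peak (%), for each gene family with at least 5 K27R genes, with kept and K27R gene numbers in parentheses. Points are shares, bars are exact 95% intervals that cover counting error only, and the dashed line is the 28.2% of all K27R genes; developmental transcription factor families, all at 60% or more, share the upper part with the Wnt genes and the Wnt and BMP antagonists, and the sensory receptor families lie in the lowest part with clustered protocadherins, defensins and C-type lectins.

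Of the 40 Hox genes, which set position along the body axis, 29 lay in K27R regions and 22 of these were kept. The Hox genes lay in only 5 K27R regions, so that they are not independent. In the Hoxd cluster a K27R region of 239.2 kb held 6 EZHIP peaks, which together spanned 82.4 kb. A peak of 56.6 kb covered Evx2 and Hoxd9 to Hoxd13, a peak of 12.4 kb covered Hoxd3 and Hoxd8, and a peak of 5.8 kb covered Hoxd1. Hoxd4 lay between peaks, 6.64 kb from the nearest, and was lost. In the Hoxa cluster, a peak of 54.0 kb in a K27R region of 196.6 kb covered Hoxa9, Hoxa10, Hoxa11 and Hoxa13 and ended 0.548 kb from the lost Hoxa7. Hoxb7 was 0.371 kb and Hoxb6 8.59 kb from a peak of 42.4 kb that covered Hoxb8 and Hoxb9. Hoxc4 and Hoxc5 were lost at 19.4 and 14.2 kb from the 105.8 kb peak that covered Hoxc6 and Hoxc8 to Hoxc13. Apart from Hoxb1, which lay in a separate K27R region of 10.0 kb with no EZHIP peak, each lost Hox gene thus had a kept neighbour in its own region. By position in the cluster, all 16 K27R genes numbered 9 to 13 and all 3 numbered 8 were kept, and the 10 numbered 7 or lower held all 7 lost genes.

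The Pax genes, regulators of eye, kidney, neural and muscle development, showed the widest EZHIP peak of all. It spanned 153.4 kb over Pax2 in a K27R region of 481.0 kb, and the same region held Wnt8b under a separate peak of 44.0 kb. Pax7 (53.2 kb), Pax6 (46.0 kb) and Pax5 (44.6 kb) followed, and Pax9 (15.2 kb) and Pax4 (10.0 kb) were also kept. Pax1 and Pax3 were lost, although both had a CpG island. Pax1 lay in a K27R region of 305.4 kb that held 5 EZHIP peaks, yet the nearest EZHIP peak was 163.1 kb away, and the region of Pax3 (67.8 kb) held none. The Zic genes lay as neighbours under shared peaks of 63.0 kb (Zic1 and Zic4) and 44.0 kb (Zic2 and Zic5). Six3, an eye and forebrain regulator without a CpG island at its TSS by the criteria used, lay under 47.8 kb, and Six2 in the same 689.6 kb region under 13.6 kb.

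Among the T-box genes T, Tbx1, Tbx2, Tbx4, Tbx20 and Tbx21 were kept under peaks of 6.6 to 22.8 kb. Tbx2 lay in a narrow K27R region of 20.8 kb, under an EZHIP peak of 15.6 kb. The lost members were Eomes, Tbr1 and Tbx19, and Tbr1 was 1.41 kb from a peak. Gata2 to Gata5, which act in blood, heart and endoderm, were kept under 7.2 to 46.4 kb. Gata6 was lost, in a K27R region of 22.0 kb and 345.9 kb from the nearest EZHIP peak. Sox9, the cartilage and testis regulator, was lost in a K27R region of 93.2 kb and lay 1714 kb from an EZHIP peak, whereas Sox2 was kept under 37.8 kb.

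In all, 50 developmental transcription factors were lost. Of these, 26 lay in K27R regions with no EZHIP peak and 13 lay within 10 kb of one. Their K27R regions were narrower than those of the kept factors, with medians of 77.8 kb (interval 52.8 to 127.4 kb) and 176.9 kb (147.6 to 210.0 kb), respectively. A CpG island lay at 34 of the 50 lost and at 158 of the 184 kept factors.

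As a class, signalling genes were kept in 42 of 127 cases (33.1%, interval 24.98 to 42.0%), an interval that includes the background of 28.2%. Of the Wnt ligands 10 of 16 were kept, and of the secreted Wnt and BMP antagonists 10 of 14 (among them Dkk1, Grem1, Sfrp1, Sfrp2, Sfrp5 and Wif1). The widest EZHIP peak over a Wnt gene was that over Wnt3a (54.8 kb in a K27R region of 86.0 kb). Wnt9a, its neighbour in the same region, was lost 5.43 kb from a second peak of 3.2 kb, although its start site held the 58 CG shown above and a CpG island of 1597 bp. Wnt6 and Wnt10a shared a K27R region of 43.4 kb with no EZHIP peak, and Wnt2, Wnt4 and Wnt16 were also lost in regions without one. The Hedgehog ligands Shh, Ihh and Dhh were all kept, whereas Gli1, a transcriptional effector of the pathway, and Hhip, which binds the ligands, were lost, each with a CpG island at the TSS. Of the Fgf ligands 5 of 9 were kept (interval 21.2 to 86.3%), and of the TGF-beta superfamily ligands 6 of 18 (13.3 to 59.0%), and both intervals include the background. None of the 3 Frizzled receptors were kept (interval 0 to 70.8%, which includes the background), and 4 of 40 interleukin and interleukin receptor genes (2.79 to 23.7%). None of 20 clustered protocadherins were kept, but these lay in only 5 K27R regions and are not independent. The adhesion class to which the protocadherins belong kept 25 of 87 (28.7%), close to the background. Nog, a BMP antagonist, was lost 2.93 kb from a peak of 1.4 kb, with 33 CG in its promoter window.

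Neuronal genes, which as a class were kept in 89 of 213 cases (41.8%, interval 35.1 to 48.7%), were led by the potassium channels with 38 of 71. The glutamate, GABA and glycine receptor families kept 15 of 37 (interval 24.8 to 57.9%), an interval that includes the background of 28.2%. The amine and acetylcholine receptors kept 18 of 41 (28.5 to 60.3%), an interval that begins just above it. These 41 genes lay in 36 K27R regions and are not all independent, so that so small a margin shows no difference. The orphan Gpr receptors of the same class kept 7 of 38 (18.4%, interval 7.74 to 34.3%). The alpha-2 adrenergic receptors Adra2a, Adra2b and Adra2c were all kept, and nicotinic receptor subunits were kept in 3 of 14 cases, with Chrna7 and Chrnb2 among the 11 lost. These subsets of the 41 were picked after their values were seen. No interval was computed for them, so that they do not show a difference between receptor types or from the background. Grm2, a metabotropic glutamate receptor, was lost 0.04 kb from a peak. The median K27R region of the lost neuronal genes was 37.2 kb, and that of the kept ones 147.2 kb. Transporters of the Slc families kept 51 of 146 (interval 27.2 to 43.3%, which includes the background). Cytochromes P450 kept 6 of 44 (5.17 to 27.4%) and Zfp zinc finger genes 5 of 47 (3.55 to 23.1%), both below it. The 44 cytochrome genes lay in 32 K27R regions and are not all independent. Their upper limit, just under the background, thus shows no difference from it.

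Clustered sensory receptors lay at the other end. Of 281 in K27R regions 12 were kept (4.27%, interval 2.23 to 7.34%), and all of these were olfactory receptors (12 of 213). None of 48 vomeronasal receptors and none of 20 taste and trace amine receptors were kept. Only 2 of the 281 had a CpG island at the annotated TSS. As in Olfr311 and Olfr312, that position may be the start of the coding sequence. Unannotated start sites farther upstream were not examined, so that the kept share and island count hold for the annotated positions only. Defensins (0 of 18), C-type lectins (1 of 27) and keratin-associated proteins (1 of 15) were likewise lost in nearly all cases, and they had an island in 0, 2 and 0 cases. The lost sensory receptors lay in K27R regions with a median width of 98.4 kb, above the 74.3 kb of all lost genes, and 195 of the 269 lay in regions with no EZHIP peak. Entries whose symbols begin like those of ribosomal proteins were kept in 0 of 17 cases, most of them named as pseudogenes and one (Rps6ka1) a kinase gene.

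Kept and lost genes differed in the width of their K27R region. The median region of a kept gene spanned 126.2 kb (interval 116.6 to 135.6 kb; quartiles 55.0 and 239.0 kb) and that of a lost gene 74.3 kb (70.2 to 77.0 kb; quartiles 29.75 and 172.2 kb), a ratio of 1.70. In the narrowest quartile of genes by region width (1.2 to 35.6 kb) 15.1% were kept, and in the widest (194.6 to 815.4 kb) 40.0%. Kept start sites also lay deeper inside the region. The median distance to the nearer region edge was 26.8 kb for kept and 12.5 kb for lost genes. Within 2 kb of an edge 31 of 578 genes were kept (5.36%), at 10 to 20 kb 28.0%, and at 100 kb or more 190 of 426 (44.6%). Region width and distance to the edge are linked, since a deep start site needs a wide region. A peak that spans several kb around a TSS and ends inside the K27R region also leaves little room for kept start sites near the edge. The low share there follows in part from this geometry.

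The other difference lay in the DNA at the start site. A CpG island lay within 500 bp of the TSS of 1298 kept genes (76.3%, interval 74.2 to 78.3%) and 1392 lost genes (32.1%, 30.7 to 33.5%), against 54.3% of all protein-coding genes. The 300 bp promoter window held a median of 17 CG in kept genes and 6 in lost genes, and a median G+C content of 61.0% and 52.3%. The kept share rose over the classes of CG count, from 3.19% of the 251 genes with no CG through 21.8% of those with 5 to 9 and 41.3% of those with 15 to 19 to 55.2% of those with 30 to 64. It also rose with the length of the island, from 37.1% of genes with an island under 500 bp to 69.0% of the 174 genes with an island of 2000 bp or more.

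Width and island were each associated with the kept share within classes of the other. Among genes with an island, 25.4% were kept in the narrowest quartile by region width, then 46.0%, 58.4% and 67.4% in the wider ones. Among genes without an island, the shares were 5.21%, 12.3%, 9.39% and 20.4%, which did not rise at every step.

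**Figure D2:**
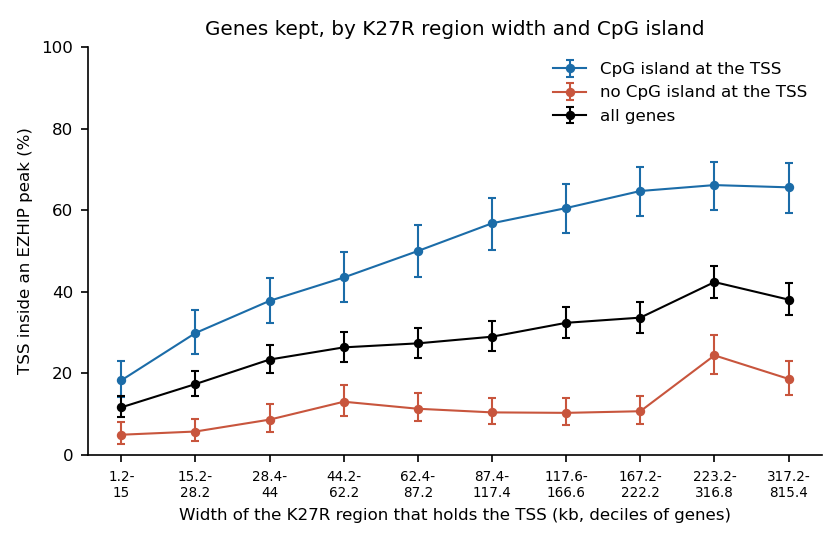
Share of K27R genes with the TSS inside an EZHIP peak (%) in deciles of genes by the width of the K27R region (kb), for genes with a CpG island at the TSS, without one, and all genes. Bars are exact 95% intervals that cover counting error only; the share of genes with an island ran from 18.3% in the narrowest decile to 65.6% in the widest, and that of genes without one from 4.97% to 18.6%.

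The share of developmental transcription factors kept was higher than that of other genes with the same island status. The other genes included the Zfp zinc finger and nuclear receptor genes, which are also transcription factors. Of these, 11 of 36 with an island (30.6%) and 2 of 29 without one (6.90%) were kept. With an island, 158 of 192 developmental transcription factors were kept (82.3%, interval 76.1 to 87.4%) and 45.6% of 2498 other genes (43.7 to 47.6%). Without one, 26 of 42 factors were kept (61.9%, interval 45.6 to 76.4%) and 11.4% of 3309 other genes (10.3 to 12.5%). In the widest quartile of regions, the shares with an island were 90.5% and 63.8%. In the narrowest quartile only 15 factors with an island were present, of which 6 were kept (40.0%, interval 16.3 to 67.7%), an interval that includes the 25.1% of other genes.

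The K27R regions with both kept and lost genes allowed a comparison inside the same domain. Of the 3437 K27R regions that held a TSS, 755 had all of their genes kept, 2182 had all lost and 500 had both. In these 500 regions, with a median width of 159.6 kb, an island lay at 557 of 810 kept genes (68.8%) and at 331 of 1103 lost genes (30.0%). The share of genes with an island was higher among the kept genes in 297 regions, higher among the lost in 62 and equal in 141. The median CG count was higher in the kept genes of 351 regions and in the lost genes of 140. Kept genes in these regions lay a median of 40.4 kb from the region edge and lost genes 29.7 kb, to which the limit near the edge given above also applies.

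Among the regions with at least 2 kept and 2 lost genes, that with the most genes lay on chromosome 11 (chr11:58169801-58659800, 490.0 kb) and held 27 genes, mainly olfactory receptors. Its 7 EZHIP peaks spanned 27 kb in all and covered 3 start sites. Trim58, the only gene of the region with an island, lay under a peak of 3.0 kb, Olfr313 under 3.6 kb and Olfr311 under 11.8 kb. Olfr312, whose sequence is shown above, was lost at 0.543 kb from the peak over Olfr311. The other receptors of the region, from Olfr30 to Olfr314, lay 3.4 kb (Olfr179) to 97.1 kb (Olfr330) from a peak.

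The type II keratin cluster (chr15:101290401-101802600) was kept over much of its length although it was nearly free of islands at its start sites. This K27R region of 512.2 kb held 27 EZHIP peaks that spanned 248.2 kb. It held 22 genes, of which 11 were kept and 11 lost, and the only gene with an island, 5430421N21Rik, was among the lost. The epidermal keratins Krt1, Krt2 and Krt77 lay under a peak of 63.6 kb, Krt72-ps and Krt73 under 33.0 kb, and Krt75 and Krt82 under 29.2 kb. Krt5, the keratin of basal epidermal cells, was lost 9.68 kb from a peak, and Krt6a and Krt6b at 2.34 and 0.72 kb. Over all keratins 13 of 48 were kept (27.1%), close to the background of 28.2%, and 12 of the 46 without an island were kept.

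In the K27R region chr9:44756001-45571400 (815.4 kb), 12 of 17 genes were kept. The 20 EZHIP peaks of this region, with or without a start site, spanned 122.0 kb in all. The T cell receptor subunits Cd3g and Cd3d shared a peak of 17.4 kb and Cd3e had 14 kb, all without an island, and Scn2b and Scn4b, sodium channel subunits, had 8.4 and 21.6 kb. In a lipocalin cluster (chr2:25468801-25764400, 295.6 kb) 3 of 16 genes were kept. Bmyc (29 CG) and Kcnt1 (17 CG) had an island, and Lcn8 (1 CG) had none. The 8 other lipocalins of the region were lost, with 0 to 3 CG each and 3.07 to 54.5 kb from a peak.

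**Figure D3:**
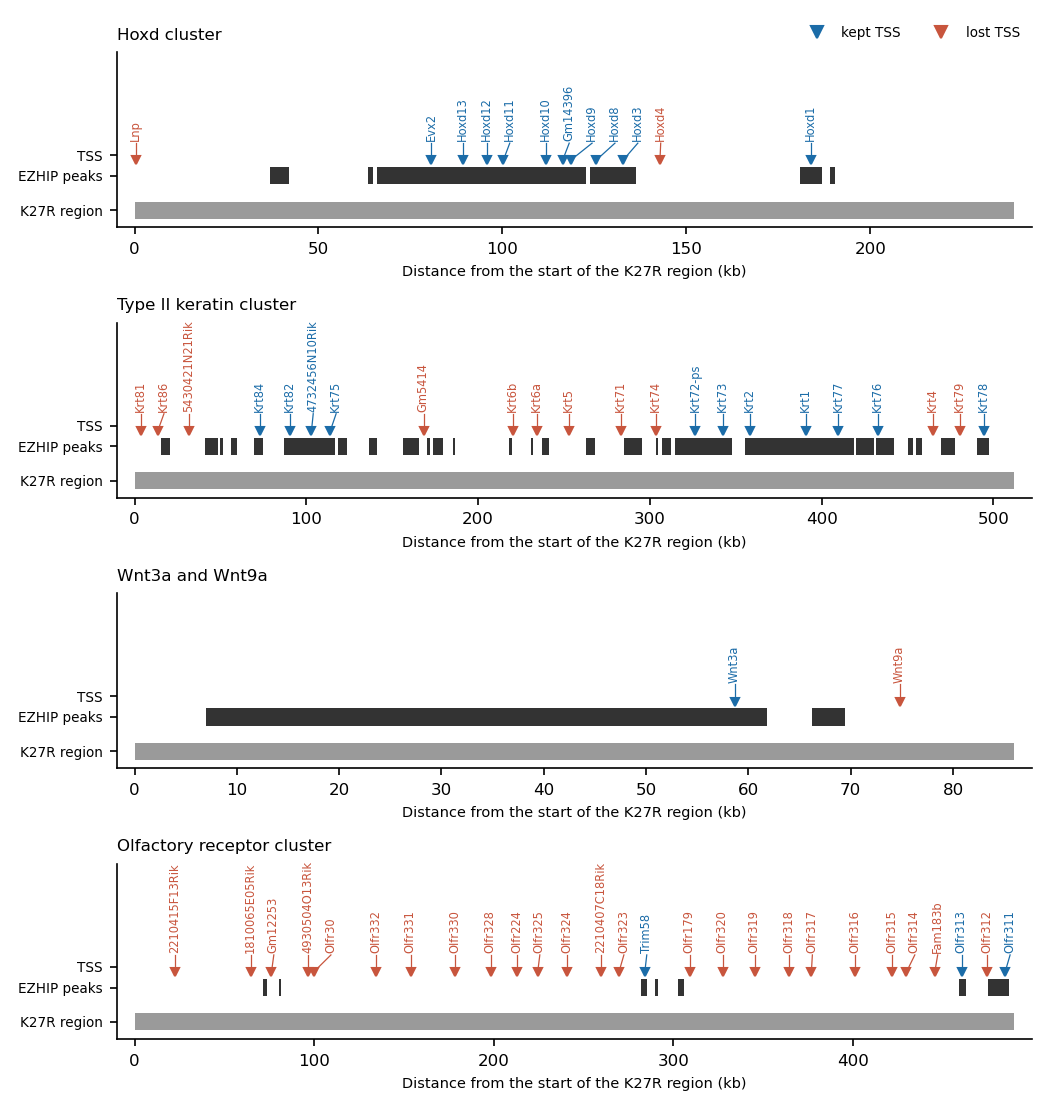
Maps of 4 K27R regions, with distance from the start of the region in kb on the horizontal axis. Grey bars are the K27R region, black bars EZHIP peaks, and triangles the TSS of kept (blue) and lost (red) genes; in the Hoxd cluster 10 of 12 start sites were kept, in the type II keratin cluster 11 of 22, and in the olfactory receptor cluster 3 of 27, while Wnt3a was kept and its neighbour Wnt9a lost.

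The EZHIP peak over a kept TSS was much narrower than the K27R region around it. Its median width was 8.4 kb (interval 8.0 to 8.8 kb; quartiles 5.2 and 15.6 kb), or 8.52% of the width of the K27R region (quartiles 3.91 and 18%). This percentage counts only the peak over the TSS. Other EZHIP peaks of the same region, as in the keratin cluster above, are not included. The 1542 EZHIP peaks that held a kept TSS had a median width of 8.0 kb, against 3.4 kb of the other EZHIP peaks. A wider peak is more likely to hold a TSS, so that this split by itself favours wider peaks. Over the kept genes, the EZHIP peak reached a median of 3.44 kb upstream and 4.45 kb downstream of the TSS. Developmental transcription factors lay under wider peaks, with a median of 22.0 kb (interval 17.8 to 25.6 kb) against 7.8 kb (7.4 to 8.2 kb) of the other 1517 kept genes. They made up 10.8% of kept genes and 98 of the 325 kept genes under peaks of 20 kb or more (30.2%). These medians and counts are per gene, so that a wide peak over several genes, as in the Hox clusters, was counted at each of them.

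The 12 kept genes under the widest EZHIP peaks, 1 per peak, began with Pax2 (153.4 kb). Next were 2410017I17Rik (113.8 kb), Lbx1 (113.4 kb), which acts in limb muscle precursors and spinal cord, Zpbp2 (109.6 kb), Hoxc13 (105.8 kb) and Olig1 (96.0 kb), an oligodendrocyte regulator. Tlx1, needed for the spleen, lay under 78 kb with 1 CG in its promoter window and no island, in the 300.6 kb K27R region that also held Lbx1. Zswim5, 4930528F23Rik, Sfi1, Sez6 and Dmrt3 followed with 66.4 to 76.8 kb.

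**Figure D4:**
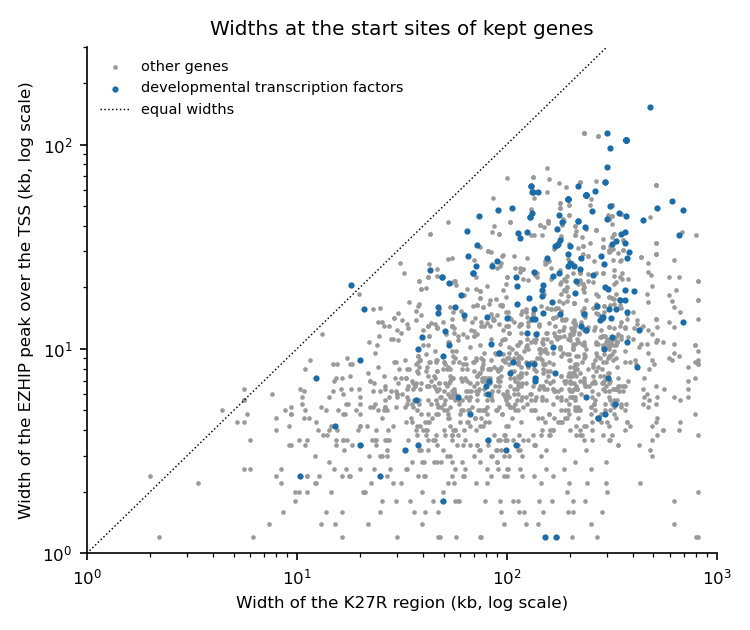
Width of the EZHIP peak over the TSS against the width of the K27R region (kb, log scales on both axes) for the 1701 kept genes, with developmental transcription factors in blue. Nearly all points lie below the dotted line of equal widths; the median EZHIP peak was 22.0 kb wide over the transcription factors and 7.8 kb over the other genes.

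Lost genes were split into 2 kinds by whether their K27R region held an EZHIP peak. In 2369 cases (54.6%) the K27R region held no EZHIP peak at all, and in 1971 (45.4%) a peak remained elsewhere in it. The former lay in narrower regions, with a median of 38.8 kb, and a median of 335.4 kb from the nearest EZHIP peak. The latter lay in regions of 154.6 kb and 14.4 kb from a peak. Both differences follow in part from the split itself. A wide region has more room for a peak, and a peak in the same region lies no farther away than the region is wide. The share with an island was close in both kinds, 32.2% (interval 30.3 to 34.1%) and 31.9% (29.9 to 34.0%). In 503 lost genes (11.6%) an EZHIP peak lay inside the gene body.

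Over all lost genes the median distance from the TSS to an EZHIP peak was 98.0 kb (interval 89.3 to 106.3 kb; quartiles 18.1 and 375.1 kb). Within 1 kb lay 233 lost genes (5.37%), within 5 kb 553 (12.7%), within 10 kb 809 (18.6%) and within 100 kb 2190 (50.5%). Of the 553 within 5 kb, the peak was downstream of the TSS in 287 and upstream in 266. The farthest, Gm2897, lay 10117 kb from a peak. The interferon-induced Gbp1 and Gbp5, the chloride channel regulators Clca2 and Clca3, and the BMP receptor gene Bmpr1b, all on chromosome 3, lay 7930 to 8356 kb from one.

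**Figure D5:**
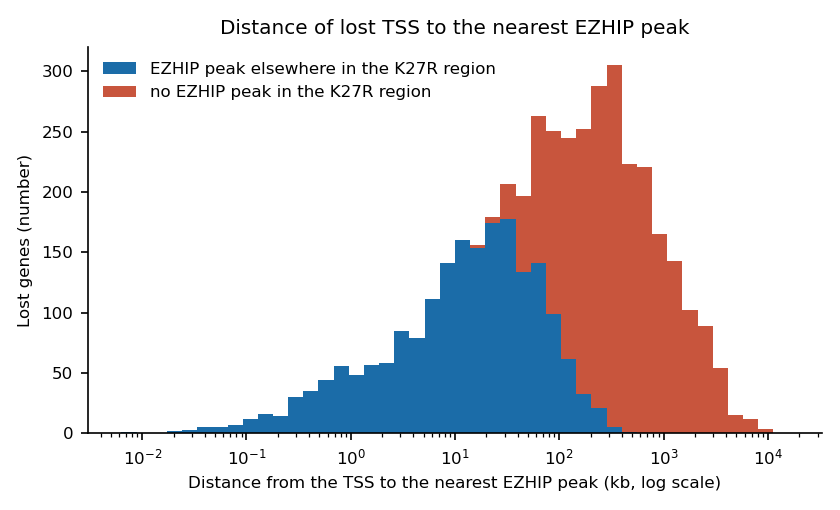
Number of lost genes by the distance from the TSS to the nearest EZHIP peak (kb, log scale), stacked for K27R regions that held an EZHIP peak elsewhere (blue) and those that held none (red). The medians were 14.4 kb and 335.4 kb. The split bears on these distances, since a peak in the same region lies no farther away than the region is wide.

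The widest K27R regions without any EZHIP peak, in the order of their lost genes by width, held Sun5 (494.2 kb), Rnaseh2b (427.0 kb), 1700028P14Rik (402.6 kb), Ufm1 (391.6 kb), Gm5670 (370.6 kb) and Ankk1 (358.0 kb). Sun5 is a sperm nuclear envelope gene, whose promoter window held the 2 CG shown above. Rnaseh2b, a ribonuclease subunit, and Ufm1, a ubiquitin-like modifier, had an island. Unc79, Vmn2r81, Gm9817, Btbd11, Il19 and Gm10113 followed with 283.2 to 320.2 kb.

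The boundary between kept and lost is an edge on a 200 bp grid. The lost genes nearest to an EZHIP peak were Scnn1g (8 bp), Kcnj3 (20 bp), Gfra4 (24 bp), Cd24a (26 bp) and Pvalb (30 bp). The kept genes nearest inside a peak edge were Ffar3 and Fhad1 (3 bp each), Susd4 and Ppp1r14c (9 bp each) and Gm5868 (11 bp). The lists also differed in their gaps. The shortest gap between EZHIP peaks was 1200 bp and that between K27R regions that did not abut was 200 bp, and 1385 gaps in EZHIP and 1235 in K27R were under 10000 bp. Joining neighbours no more than 10000 bp apart, in each list, gave 1771 kept of 6083 genes (29.1%). Whether the same caller settings made both lists is not known, and the kept share, the peak widths and the covered length depend on those settings.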

How the data were processed

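H3K27me3 ChIP-Seq lists of 2 libraries (K27R and EZHIP, 1 each) were compared; other files were not used here. By the study's methods, MNase-digested crosslinked chromatin was immunoprecipitated with spike-in chromatin, reads were aligned to mm9 and a reference genome with bowtie1 (Bowtie 1.0.0, dm6 and deepTools in the submitters' processing notes), and the authors called broad peaks per sample with MOSAiCS-HMM. The deposited lists give chromosome, start and end, with no score or signal. The methods state a maximum gap of 10000 bp, yet both lists hold shorter gaps, so that they may come from other caller settings, which may also differ between the lists. Whether spike-in scaling entered the calls is not given in the sources used here. A library called less deeply would also give fewer peaks, which cannot be told apart from a lower level of the mark.

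The TSS was the 5′ end of each protein-coding gene (GENCODE vM1, NCBIM37). Starts were read as counting from 0 and printed counting from 1. CpG islands were found in mm9 by scoring 17 per CG and -1 per other base, and segments were kept that were over 200 bp long, had a G+C content of 50% or more and an observed to expected CpG ratio over 0.6 (25717 islands). Families were matched by symbol patterns, in 51 families. Of the 6041 entries, 61 shared a symbol with another. Shares have exact Clopper-Pearson 95% intervals and medians order-statistic intervals. They cover counting error only and treat genes as independent, which genes of 1 region are not. No test was run.

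The members, families and markers were chosen with earlier results of these data known. Named genes were the members of the Hox, Pax, Tbx, Gata, Zic and Wnt families and the family of Six2, the 12 kept under the widest EZHIP peaks, the 12 lost in the widest K27R regions without one, the 5 on each side nearest a peak edge, the 6 farthest lost, the 4 regions with the most genes among those with at least 2 kept and 2 lost, up to 4 members of other families with 10 or more K27R genes, and markers. Further members named as examples of a family count, the Hedgehog genes included, were chosen after their values were seen. The marker genes Sox1, Spi1 and Gata1 were not found under these symbols on chromosomes 1 to 19. Some markers and family members are not reported here. Interval and island tools were tested on simulated data. Python 3.11.15, numpy 2.4.6, pandas 2.3.3, scipy 1.17.1 and matplotlib 3.10.9 were used.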

Additional observations from a re-analysis of the deposited data

How the results depend on the processing

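No paired analysis was possible because each group had 1 library and no test was run. The alternatives left 41 of 56 recomputed values within the interval of the reported value. Counting a gene as kept where its TSS lay within 5000 bp of an EZHIP peak moved the kept share to 37.3%, the island shares to 69.4% of kept and 29.7% of lost genes, and the kept share of sensory receptors to 9.61%. Counting each K27R region once, as kept where any TSS in it was kept, gave 36.5% of regions kept and a width ratio of 2.76. A wide region can hold more start sites and peaks, so that this rule by itself favours wide kept regions, and the larger ratio is no added support. Adding chromosome X gave 25.6% kept, a width ratio of 1.46 and a median distance of lost genes of 130.2 kb. Using any annotated transcript start gave islands at 72.7% of kept and 28.0% of lost genes, and islands of at least 500 bp alone 59.0% and 20.4%. Leaving out the Olfr, Vmn1r and Vmn2r genes gave islands at 34.0% of lost genes. EZHIP peaks of at least 2000 bp alone gave a median distance of 125.8 kb. Counting entries with the same symbol once, chosen after seeing the data, moved none of the 7 values beyond its interval, and the kept share of developmental transcription factors stayed within its interval under each alternative computed for it, which left out the count by region, the removal of receptor genes and the island length. Kept genes had a larger share with islands and wider K27R regions than lost genes under each alternative that gave these values by gene. The lists carry no read counts, so depth sets a limit that could not be measured, and no replicate shows how far the calls vary between libraries.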
